A study of Mus musculus with 3 samples.

Results

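The comparison described here sets colonic mucosa from a mir-10b knockout mouse given a miR-10b-5p mimic against wild-type colonic mucosa. Small RNA libraries were sequenced for 3 groups with 1 library each. The mimic library came from mucosa of genotype global mir-10b-/- after injection of a miR-10b-5p mimic, a synthetic RNA built to act as the mature miRNA, and its title calls it rescue. The KO library came from mucosa of the same deleted genotype with no treatment named, labelled diabetic. The WT library came from mucosa of genotype global mir-10b+/+, labelled healthy. The mimic and WT groups therefore differ in genotype and in the injection together, and the labels give no dose, time after injection, control injection, age or strain, nor whether a library pools animals or whether the mimic-treated mouse was diabetic. The knockout is global, so mir-10b is deleted in every cell type of the animal and not in the mucosa alone. The members are the rows of the deposited table, each 1 mature miRNA, with a mean over the mimic, KO and WT libraries of at least 10 normalized reads; 415 of 471 rows met this. Just inside this limit were miR-219a-3p, with 9 in mimic, 14 in KO and 7 in WT, and miR-3090-3p, with 12, 7 and 11 in the same order. Just outside were miR-491-5p, with 0 in mimic, 20 in KO and 8 in WT, and miR-8103, with 0 in mimic, 0 in KO and 27 in WT.

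miRNAs are short RNAs cut from hairpin precursors, and each hairpin can yield a mature strand from its 5p arm and another from its 3p arm. Loaded into Argonaute proteins, a mature miRNA pairs with messenger RNAs mainly through its seed, bases 2 to 8 from its 5′ end, and lowers their stability and translation, so miRNAs with the same seed can bind many of the same sites. The gut wall is a mixture in which epithelial cells are known for the miR-192, miR-194 and miR-200 groups, smooth muscle for miR-143 and miR-145, and other cells for sets of their own. miR-10a and miR-10b are encoded within the Hox gene clusters, and miR-10b has been linked to the pacemaker cells of gut motility and to blood glucose control in mice.

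The mature sequences of the miR-10 family are printed first because the deletion and the mimic both act on one of them and the other members resemble it closely. They are shown 5′ to 3′, from RefSeq on GRCm38.p6, with the seed in capitals.
miR-10b-5p: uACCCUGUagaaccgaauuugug
miR-10a-5p: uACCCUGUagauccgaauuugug
miR-99a-5p: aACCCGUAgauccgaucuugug
miR-100-5p: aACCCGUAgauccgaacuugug
miR-99b-5p: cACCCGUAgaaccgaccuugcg
Counting from 1 at the 5′ end, miR-10b-5p differs from miR-10a-5p by U12A alone, and miR-100-5p differs from miR-99a-5p by U16A alone. miR-10a-5p and miR-10b-5p thus share a seed that miR-99a-5p, miR-99b-5p and miR-100-5p do not have. miR-10b-5p lies at chr2:74726074-74726096 on the plus strand, in introns of the Hoxd3 and Hoxd4 genes. miR-10a-5p lies at chr11:96317186-96317208 on the plus strand, outside other annotated genes. Reads of such close relatives (also miR-27a and miR-27b, miR-23a and miR-23b, miR-30a and miR-30d, miR-148a and miR-148b, miR-192 and miR-215, and the let-7 members) can be split between rows by the counting, so values within these groups are uncertain.

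The next sequences are those of rows that stood farthest apart between the mimic and WT libraries and whose values follow below. The first 5 were higher in the mimic library, and the seed is again in capitals.
miR-488-3p: uUGAAAGGcuguuucuugguc
miR-147-5p: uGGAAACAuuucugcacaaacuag
miR-340-3p: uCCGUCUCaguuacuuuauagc
miR-148a-3p: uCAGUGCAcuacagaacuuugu
miR-30a-5p: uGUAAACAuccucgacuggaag
The following 6 were lower in the mimic library.
miR-574-5p: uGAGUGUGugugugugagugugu
miR-541-5p: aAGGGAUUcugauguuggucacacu
miR-329-3p: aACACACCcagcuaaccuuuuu
miR-495-3p: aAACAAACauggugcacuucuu
miR-214-3p: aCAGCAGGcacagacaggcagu
let-7d-3p: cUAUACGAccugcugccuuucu
No seed is shared among these 11 sequences.

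The normalized reads summed to 8510085 in the mimic library, 8124898 in KO and 4872446 in WT, so the mimic total was 1.75 times that of WT. The ratio between libraries therefore depends on the scaling, and each ratio is given as deposited and, where the scaling matters, with the libraries brought to equal totals or divided by median-of-ratios factors. Relative to the deposited values, equal totals move every log2 ratio of mimic over WT by -0.80 and median of ratios moves it by 0.14. The mimic library was more concentrated in a few rows than WT: 5 rows held 50% of its total, against 4 rows in KO and 8 rows in WT, and its 10 highest rows held 70.4%, against 66.7% in KO and 58.2% in WT. The 5 rows with the largest gain in normalized reads, a set chosen after the values were seen, made up 79.4% of the difference between the mimic and WT totals. They were miR-143-3p, miR-192-5p, miR-21a-5p, miR-145a-5p and miR-27b-3p, and without them the mimic total was 1.25 times the WT total. There was 1 library a group, so no difference below could be set against a spread between replicates, no test was run, and sequencing depth is unknown.

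The labelled tissue was checked against marker miRNAs. The gut epithelial rows were abundant in all libraries: the 6 rows of miR-192, miR-194 and miR-215 held 19.9% of all normalized reads in mimic, 16.6% in KO and 17.1% in WT. The 9 rows of the miR-200 family (miR-200a, miR-200b, miR-200c, miR-141 and miR-429) held 9.17% in mimic, 15.1% in KO and 14.6% in WT. Muscle rows were abundant as well, and the 9 of them above the limit held 26.4% in mimic, 13.1% in KO and 11.8% in WT. None of these 24 rows was at 0 in any library. Of the striated-muscle markers, miR-206-3p was below the limit, with 0 in mimic, 0 in KO and 7 in WT, while miR-1a-3p was at 22584 in mimic, 7441 in KO and 2989 in WT. In a bulk sample, fewer cells of a type and less RNA per cell cannot be told apart. The part of such differences in tissue makeup in the results that follow was not tested.

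Taking the values as deposited, 82 of the 415 rows (19.8%) exceeded WT by 2-fold or more in the mimic library, 107 (25.8%) were at least 2-fold lower, and 226 lay between. The median log2 ratio over all rows was -0.14. With equal totals the split was lopsided, with 30 rows higher (7.23%), 194 lower (46.7%) and an overall median of -0.93. After median-of-ratios scaling 95 rows were higher (22.9%) and 95 lower (22.9%). The calls made with every one of these scalings were 30 rows higher (7.23%) and 95 lower (22.9%). These are the rows meant below by "under all 3 scalings". The 30 are the rows higher with equal totals, and the 95 are those lower with median of ratios. Equal totals lower every ratio by more than median of ratios raises it. A row therefore needs a larger deposited difference to be called higher than lower, and the imbalance of these counts partly follows from that. Of the rows called under all 3 scalings, 2 of the higher rows were listed at 0 in WT and 17 of the lower rows were listed at 0 in mimic. Among the 297 rows whose mean of mimic and WT was at least 100, 21 were higher and 56 lower under all 3 scalings. At a 4-fold limit the deposited values gave 20 rows higher and 48 lower, and at an 8-fold limit 4 higher and 22 lower.

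**Figure D1:**
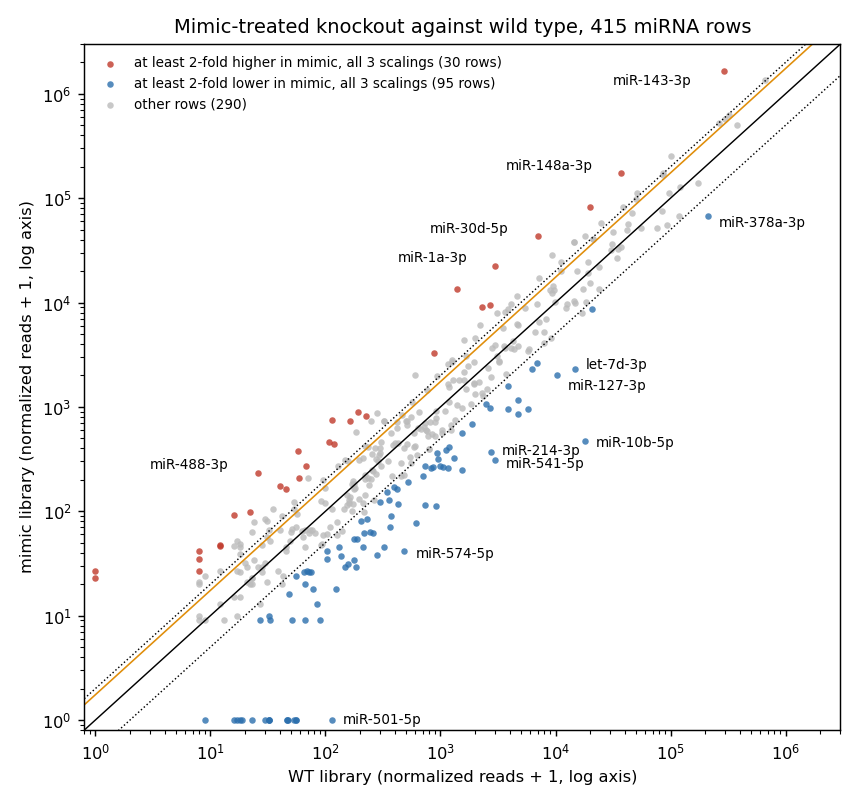
Each point is 1 of the 415 miRNA rows, with normalized reads plus 1 in the mimic library on the vertical log axis and in the WT library on the horizontal log axis. The solid black line marks equal deposited values, the dotted lines 2-fold, and the orange line the ratio of totals, 1.75; the red rows (30) and blue rows (95) are at least 2-fold apart under all 3 scalings, and miR-10b-5p lies far below the lines at 469 in mimic and 18057 in WT.

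miR-10b-5p itself, the deleted miRNA and the one the mimic copies, was at 469 normalized reads in the mimic library, 14 in KO and 18057 in WT. The mimic library thus held more than KO and far less than WT: its value was 2.60% of the WT value, or 38.5-fold lower, a log2 ratio of -5.26 as deposited, -6.07 with equal totals and -5.13 with median of ratios. Its rank by value among the 471 rows was 182 in mimic, 397 in KO and 44 in WT. Among rows with a mean of mimic and WT of at least 100 and apart under all 3 scalings, miR-10b-5p had the lowest ratio of mimic over WT. Whether these reads are the injected RNA itself or come from elsewhere cannot be told apart in the deposited values. Set against its near-identical relative within each library, which needs no scaling, miR-10b-5p was 0.954% of miR-10a-5p in mimic, 0.0278% in KO and 42.8% in WT.

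The other members of the family did not follow miR-10b-5p. miR-10a-5p, encoded in the HoxB cluster and carrying the same seed, was at 49136 in mimic, 50417 in KO and 42206 in WT. Its ratio was 0.22 on the log2 scale as deposited, -0.59 with equal totals and 0.36 with median of ratios, within 2-fold each time. Added together, the 2 rows with the seed ACCCUGU came to 49605 in mimic, 50431 in KO and 60263 in WT, so the summed seed was 82.3% of WT in the mimic library as deposited (log2 -0.28, -1.09 with equal totals and -0.14 with median of ratios). Most of the WT amount of this seed was thus carried by miR-10a-5p, and the low miR-10b-5p value left the sum within 2-fold of WT except with equal totals.

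The miR-99 and miR-100 rows, related to miR-10 but with the seed ACCCGUA, moved differently among themselves. miR-99a-5p and miR-100-5p are listed with identical values, 38282 in mimic, 24780 in KO and 14536 in WT, so the pair enters sums by seed once. The value was 2.63-fold higher in mimic as deposited and 1.51-fold with equal totals, so the pair is past 2-fold only in part of the scalings. miR-99b-5p was at 22007 in mimic, 21848 in KO and 23690 in WT, nearly level as deposited. Of the less abundant arms, miR-10a-3p was at 397 in mimic, 382 in KO and 788 in WT, and miR-99b-3p at 48, 107 and 93 in the same order. miR-99a-3p was at 22 in mimic, 25 in KO and 22 in WT. Over the 8 family rows above the limit, 1 was lower under all 3 scalings (miR-10b-5p) and 0 were higher, beside 22.9% and 7.23% of all rows.

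The rows with the highest ratios were led by muscle miRNAs. Both arms of miR-143, a miRNA of smooth muscle and other mesenchymal cells, were far above WT. miR-143-5p was at 13503 in mimic, 4827 in KO and 1387 in WT, 9.74-fold higher in mimic as deposited and 5.57-fold with equal totals. miR-143-3p was at 1655929 in mimic, 954512 in KO and 294225 in WT, 5.63-fold higher as deposited and 3.22-fold with equal totals, and was the most abundant row of the mimic library and the fifth in WT. miR-1a-3p, the muscle miRNA best known from heart and skeletal muscle, was 7.56-fold higher in mimic than in WT as deposited and 4.33-fold with equal totals. In these 3 rows the KO value lay between the mimic and WT values.

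Several less abundant rows had ratios as large. miR-488-3p, from an intron of Astn1 (chr1:158505689-158505709, plus strand), was at 232 in mimic, 56 in KO and 25 in WT, a log2 ratio of 3.16. miR-147-5p, which lies in an exon of AA467197 (chr2:122640814-122640837, plus strand), was at 748 in mimic, 180 in KO and 113 in WT. miR-340-3p, from an intron of Rnf130 (chr11:50069762-50069783, plus strand), was at 373 in mimic, 163 in KO and 57 in WT. All were highest in mimic and lowest in WT. miR-27a-5p, the minor strand of miR-27a, was at 726 in mimic, 343 in KO and 161 in WT, and miR-221-5p, the minor strand of miR-221, was at 268, 190 and 67 in the same order. For another pair the mimic library stood alone, with KO close to WT. miR-708-3p, from an intron of Tenm4, was at 455 in mimic, 86 in KO and 107 in WT, and miR-374b-5p, from an intron of the noncoding gene Ftx, was at 9151 in mimic, 2439 in KO and 2309 in WT.

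The remaining rows of the 15 highest belonged to the miR-30 and miR-148 families and to miR-339, and there the KO value was as high as the mimic value or higher, apart from miR-30d-3p. miR-148a-3p, an abundant epithelial and liver miRNA, was at 173201 in mimic, 209390 in KO and 37461 in WT. miR-30d-5p was at 43133 in mimic, 65605 in KO and 7003 in WT, and miR-30a-5p at 81404, 85382 and 19934 in the same order. miR-339-3p was at 173 in mimic, 194 in KO and 39 in WT, and miR-30d-3p at 889 in mimic, 473 in KO and 190 in WT. All 15 rows exceeded WT by 2-fold or more under all 3 scalings by the way they were chosen, and their log2 ratios as deposited ran between 1.98 and 3.28.

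**Figure D2:**
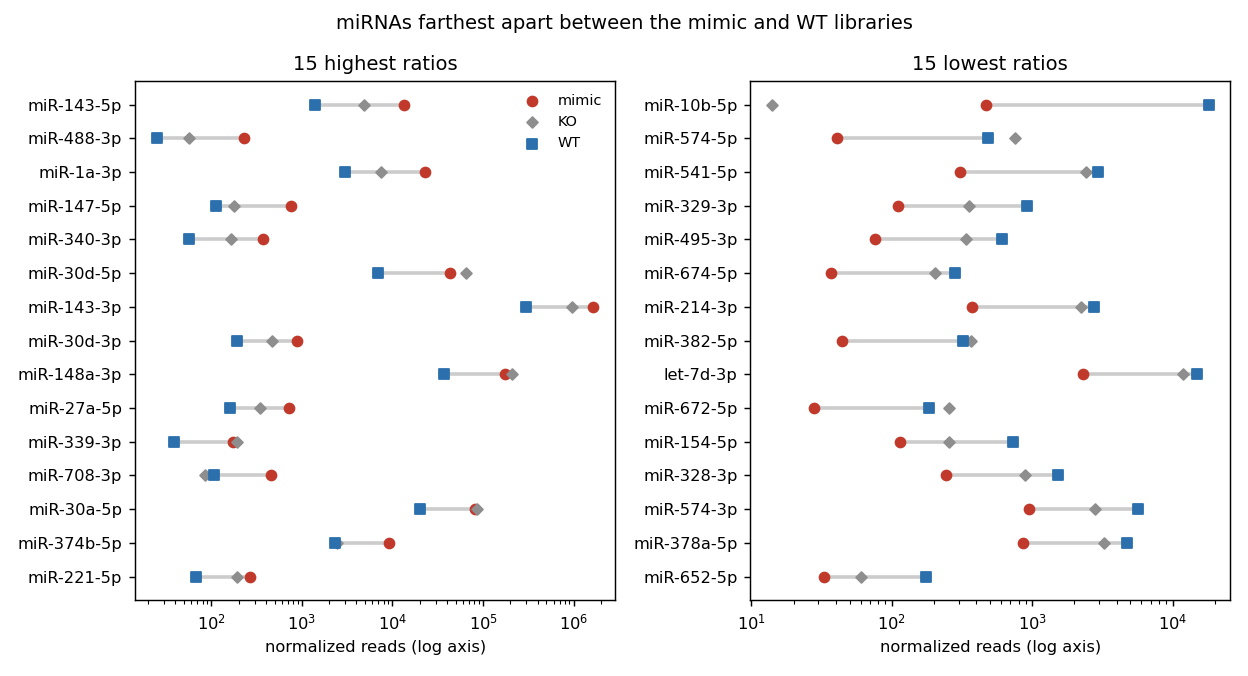
Normalized reads on a log axis for the 15 rows with the highest (left) and the 15 with the lowest (right) ratio of mimic over WT, among rows with a mean of mimic and WT of at least 100 that were apart under all 3 scalings; circles are mimic, diamonds KO and squares WT, with a grey bar joining mimic and WT. KO lies at or above mimic for miR-148a-3p, miR-30a-5p, miR-30d-5p and miR-339-3p, and near WT for let-7d-3p, miR-541-5p and miR-214-3p.

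On the low side, after miR-10b-5p, both arms of miR-574 stood out. miR-574-5p, from an intron of Fam114a1 (chr5:64970328-64970350, plus strand), was at 41 in mimic, 751 in KO and 485 in WT, 11.8-fold lower in mimic than in WT as deposited. miR-574-3p was at 954 in mimic, 2813 in KO and 5710 in WT, 5.99-fold lower. Both arms were thus lowest in the mimic library, while KO was above WT for the 5p arm and below it for the 3p arm. miR-214-3p, a mesenchymal miRNA from the Dnm3os transcript (chr1:162223438-162223459, plus strand), was at 371 in mimic, 2211 in KO and 2749 in WT, a log2 ratio of -2.89. let-7d-3p, the 3p strand of let-7d (chr13:48536024-48536045, minus strand), was at 2284 in mimic, 11921 in KO and 14833 in WT, 6.49-fold lower. For miR-214-3p and let-7d-3p the KO value lay near WT and the mimic library was apart from both.

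Of the 15 lowest rows, 5 came from the imprinted Dlk1-Dio3 region of chromosome 12. miR-541-5p was at 306 in mimic, 2412 in KO and 2949 in WT, a log2 ratio of -3.26. miR-329-3p was at 111 in mimic, 357 in KO and 916 in WT, and miR-495-3p at 76, 336 and 606 in the same order. miR-382-5p was at 44 in mimic, 369 in KO and 322 in WT, and miR-154-5p at 114, 256 and 732. In each of these 5 rows the mimic value was the lowest of the 3. miR-329-3p and miR-362-3p share the seed ACACACC, and the more abundant miR-362-3p was at 3679 in mimic, 2463 in KO and 4081 in WT, so the 2 rows together were within 2-fold as deposited, at 3790 in mimic, 2820 in KO and 4997 in WT.

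The other rows of the 15 lowest were miR-674-5p, miR-672-5p, miR-328-3p, miR-378a-5p and miR-652-5p. miR-674-5p was at 37 in mimic, 204 in KO and 280 in WT, and miR-672-5p, from an intron of Nexmif, at 28 in mimic, 254 in KO and 185 in WT. miR-328-3p was at 245 in mimic, 895 in KO and 1533 in WT. miR-378a-5p, processed from an intron of Ppargc1b, a coactivator of oxidative metabolism, was at 857 in mimic, 3258 in KO and 4742 in WT. Its abundant partner miR-378a-3p was at 66829 in mimic, 153738 in KO and 211958 in WT, 3.17-fold lower in mimic than in WT as deposited, and both arms were lower under all 3 scalings. miR-652-5p, from an intron of Tmem164, was at 33 in mimic, 60 in KO and 175 in WT.

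Rows listed at 0 were more frequent in the mimic library: 56 of the 471 rows, against 39 in KO and 6 in WT. Of the 415 rows above the limit, 17 were at 0 in mimic, 7 in KO and 2 in WT. The row with the highest WT value among those at 0 in mimic was miR-501-5p, a minor strand from an intron of Clcn5 on the X chromosome, listed at 0 in mimic, 40 in KO and 112 in WT. Next came miR-485-3p, listed at 0 in mimic, 98 in KO and 55 in WT, and miR-877-3p, listed at 0, 112 and 55 in the same order. miR-3102-3p was listed at 0 in mimic, 81 in KO and 52 in WT, and miR-1247-5p at 0 in mimic, 7 in KO and 46 in WT. The 2 rows at 0 in WT were miR-34b-5p, at 26 in mimic and 17 in KO, and miR-365-5p, at 22 in mimic and 11 in KO. No fold is given for rows at 0, since the depth behind a 0 is unknown.

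Of the 9 muscle rows, 7 exceeded WT by 2-fold or more as deposited and 0 were lower, against 19.8% and 25.8% of all rows. Under all 3 scalings 4 were higher, beside 7.23% of all rows. Their median log2 ratio was 1.54 as deposited, 0.74 with equal totals and 1.67 with median of ratios, beside -0.14, -0.93 and -0.00 for all rows. The 9 rows summed to 2249824 in mimic, 1061400 in KO and 574315 in WT. That sum was 3.92-fold higher in mimic than in WT as deposited and 2.24-fold with equal totals. The members did not differ evenly. miR-145a-5p, which is transcribed with miR-143, was at 529831 in mimic, 83319 in KO and 261621 in WT, 2.03-fold higher in mimic as deposited and 1.16-fold with equal totals. miR-145a-3p was at 24569 in mimic, 9886 in KO and 11099 in WT. miR-133b-3p, a striated-muscle miRNA, was at 1726 in mimic, 1286 in KO and 2158 in WT, slightly lower in mimic, whereas miR-133a-5p was at 205, 36 and 70 in the same order. The miR-1a and miR-143 rows were therefore the ones that exceeded WT by 2-fold or more under all 3 scalings, together with miR-499-5p at 34 in mimic, 15 in KO and 7 in WT.

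The epithelial groups were near the level of all rows or slightly above it. In the group of miR-192, miR-194 and miR-215 rows, the median log2 ratio was 0.39 as deposited, -0.41 with equal totals and 0.53 with median of ratios, so its sign depends on the scaling. miR-192-5p, the most abundant row in WT, was at 1341381 in mimic, 1081718 in KO and 656011 in WT. miR-215-5p was at 175976 in mimic, 92654 in KO and 85529 in WT, and miR-194-5p at 165965, 169274 and 85675 in the same order. These 3 abundant arms were 1.94-fold to 2.06-fold higher in mimic, close to the ratio of totals, while the minor arms miR-192-3p, miR-194-3p and miR-215-3p were slightly lower than in WT. Of the 6 rows, 0 were apart under all 3 scalings, beside 7.23% of all rows higher and 22.9% lower.

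The miR-200 family, which holds epithelial cells in their epithelial state by repressing Zeb1 and Zeb2, had a median log2 ratio of -0.16 as deposited, -0.97 with equal totals and -0.03 with median of ratios, close to all rows in each. miR-200a-3p was at 498181 in mimic, 754583 in KO and 380522 in WT, and miR-200b-3p at 139362, 334093 and 171853 in the same order. miR-429-3p was at 74855 in mimic, 46991 in KO and 83919 in WT, and miR-141-3p at 51514 in mimic, 43461 in KO and 54818 in WT. As deposited, all 4 lay within 2-fold of WT in the mimic library. Only the minor strands miR-200a-5p (2028 in mimic, 2237 in KO, 595 in WT) and miR-200c-5p (26, 29 and 11) reached 2-fold above WT as deposited, and neither did with equal totals.

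The miR-30 family comprises widely expressed miRNAs whose 5p arms share the seed printed above for miR-30a-5p. It was higher in mimic in 9 of 10 rows as deposited, beside 180 of all 415 rows. At least 2-fold higher were 7 of 10 rows as deposited, beside 19.8% of all rows, and 3 of 10 under all 3 scalings, beside 7.23% of all rows. The median log2 ratio was 1.35 as deposited, 0.54 with equal totals and 1.48 with median of ratios. The summed family was 3.12-fold higher in mimic than in WT as deposited and 1.79-fold with equal totals. miR-30e-5p was at 57750 in mimic, 113295 in KO and 24946 in WT, and miR-30c-5p at 28435, 34410 and 9266 in the same order. miR-30b-5p was at 19843 in mimic, 36242 in KO and 11103 in WT. The 5 abundant 5p arms were all highest in KO and lowest in WT. miR-30c-3p, at 215 in mimic, 367 in KO and 381 in WT, was the row that was lower.

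The miR-148 and miR-152 family was mixed. miR-148b-3p was at 11624 in mimic, 10136 in KO and 4603 in WT, and miR-152-3p, with the same seed CAGUGCA, at 26964, 50079 and 34337. Summed with miR-148a-3p, the seed was 2.77-fold the WT value in mimic as deposited, and miR-148a-3p carried most of it. The log2 ratio of that sum was 1.47 as deposited and 0.67, under 2-fold, with equal totals. In the miR-29 family, which represses collagen genes, miR-29a-3p was at 255114 in mimic, 95703 in KO and 101418 in WT, 2.52-fold higher in mimic as deposited and 1.44-fold with equal totals. miR-29b-3p was at 2808 in mimic, 1086 in KO and 1249 in WT, and miR-29c-3p at 6116, 2314 and 4730. All 6 miR-29 rows were above WT as deposited, beside 180 of all 415 rows. Their median log2 ratio was 0.79 as deposited and -0.00 with equal totals. Of these rows 0 were 2-fold apart under all 3 scalings, beside 7.23% of all rows higher and 22.9% lower.

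Other abundant rows named here lay within 2-fold of WT under at least 1 scaling. miR-21a-5p, which is induced in injury and inflammation, was at 626341 in mimic, 1360772 in KO and 319136 in WT, 1.96-fold higher in mimic than in WT as deposited and 1.12-fold with equal totals. miR-27b-3p was at 567023 in mimic, 277980 in KO and 299991 in WT, and miR-27a-3p at 111800, 64676 and 96824. miR-23a-3p and miR-23b-3p, which lie beside them in the same clusters, were below WT as deposited, with 68171 in mimic, 77778 in KO and 118055 in WT for miR-23a-3p and 51637, 41292 and 75844 for miR-23b-3p. miR-26a-5p was nearly level as deposited, at 128088 in mimic, 122738 in KO and 120950 in WT. Of the 10 rows with the highest mean of mimic and WT, miR-143-3p was higher and miR-378a-3p lower under all 3 scalings, and the other 8 were within 2-fold with equal totals apart from miR-200b-3p, which was 2.15-fold lower with that scaling and 1.23-fold lower as deposited.

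Markers of other cell types gave mixed differences. Of the 4 endocrine rows, miR-375-3p, abundant in enteroendocrine and islet cells, was at 54757 in mimic, 115315 in KO and 93198 in WT, 1.70-fold lower in mimic than in WT as deposited. miR-7a-5p and miR-7b-5p, also endocrine, were higher instead, at 7875 in mimic, 7580 in KO and 3110 in WT for miR-7a-5p and 3249, 2099 and 873 for miR-7b-5p. miR-7b-5p was the endocrine row that was apart under all 3 scalings, beside 7.23% of all rows higher and 22.9% lower. The endothelial miR-126a-3p was at 82351 in mimic, 53124 in KO and 38616 in WT, and miR-126a-5p at 40238, 24824 and 21218, both close to the ratio of totals.

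Among 8 white blood cell rows, 2 were lower under all 3 scalings and 0 higher, a share lower that is near the 22.9% of all rows. They were miR-342-3p, of lymphocytes and other leukocytes, at 1174 in mimic, 3074 in KO and 4674 in WT, and miR-150-5p, of mature lymphocytes, at 410 in mimic, 613 in KO and 1187 in WT. The pan-leukocyte miR-142a-5p was at 47347 in mimic, 14200 in KO and 31674 in WT, and the myeloid miR-223-3p at 1821, 1179 and 1438, so the white cell rows did not differ from WT in a common direction. Of the red blood cell rows, miR-451a was at 2164 in mimic, 849 in KO and 1615 in WT. Of the 5 mesenchymal rows, miR-214-3p was lower under all 3 scalings, whereas miR-199a-5p was at 19856 in mimic, 24214 in KO and 15354 in WT and miR-199b-3p at 32452, 40360 and 34591. The other mesenchymal rows were below WT, with miR-199b-5p at 10158 in mimic, 18221 in KO and 18511 in WT and miR-214-5p at 126, 244 and 264, and the list median was -0.87 as deposited. The 17 neuronal rows summed to 3404 in mimic, 4679 in KO and 4458 in WT, 0.0400%, 0.0576% and 0.0915% of the totals. Under all 3 scalings 4 of the 17 were lower and 0 higher, near the 22.9% lower of all rows, and the 4 include miR-128-3p at 263, 1042 and 863 and miR-132-3p at 217, 671 and 699. miR-124-3p, the defining neuronal miRNA, was at 100 in mimic, 77 in KO and 168 in WT. Other neuronal rows were above WT as deposited, among them miR-137-3p at 719 in mimic, 289 in KO and 420 in WT and miR-9-3p at 105, 32 and 34.

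The growth-linked clusters followed. The miR-17-92 cluster and its paralogs, which promote cell proliferation, had 1 of 19 rows higher and 4 lower as deposited, beside 19.8% and 25.8% of all rows. Under all 3 scalings 3 were lower, a share below the 22.9% of all rows, and of these miR-18a-3p and miR-363-3p were listed at 0 in mimic. Their median log2 ratio was -0.46 as deposited, -1.26 with equal totals and -0.32 with median of ratios. miR-92a-3p was at 973 in mimic, 5644 in KO and 2717 in WT, and miR-93-5p at 7958, 17740 and 16824. Of the 9 rows of the miR-322, miR-503 and miR-450 cluster on the X chromosome, which restrains the cell cycle, 5 were lower under all 3 scalings and 0 higher, against 22.9% and 7.23% of all rows, and the median was -1.38 as deposited, -2.18 with equal totals and -1.24 with median of ratios. The 5 include miR-450a-3p and miR-450b-3p, which are listed with identical values and at 0 in mimic. miR-450a-5p was at 359 in mimic, 896 in KO and 937 in WT, and miR-503-5p at 128, 651 and 359. Above WT as deposited were miR-351-5p, at 316 in mimic, 604 in KO and 272 in WT, and miR-542-3p, at 125, 466 and 90.

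The let-7 family, regulators of differentiation, was spread around WT, with a median log2 ratio of 0.06 as deposited, -0.74 with equal totals and 0.19 with median of ratios. let-7f-5p was at 112419 in mimic, 105438 in KO and 51022 in WT, 2.20-fold higher in mimic as deposited. let-7b-5p was at 8691 in mimic, 33448 in KO and 20853 in WT, 2.40-fold lower. The 9 rows that share the let-7 seed GAGGUAG, miR-98-5p included, summed to 326248 in mimic, 486959 in KO and 222583 in WT. As deposited the mimic sum was 1.47 times WT. Its log2 ratio was 0.55 as deposited, -0.25 with equal totals and 0.69 with median of ratios, so its sign depends on the scaling. Of the miRNAs of other Hox intervals, miR-196b-5p was at 4556 in mimic, 8294 in KO and 9152 in WT, and miR-196a-5p at 680, 1992 and 1894. Of their 3p arms, miR-196b-3p was at 84 in mimic, 227 in KO and 230 in WT, while miR-196a-3p was above WT as deposited, at 733, 367 and 502. Of these 4 rows, 2 were lower under all 3 scalings, beside 22.9% of all rows. In the p53-linked miR-34 family, miR-34a-5p was at 564 in mimic, 1893 in KO and 1526 in WT, while miR-34c-5p was at 882, 668 and 282.

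The longest list was the Dlk1-Dio3 region, an imprinted domain whose miRNAs are expressed from the maternal chromosome. Of 52 rows above the limit, 24 were lower and 0 higher under all 3 scalings, against 22.9% and 7.23% of all rows, and 12 further rows lay below the limit. Of the 24, 4 were listed at 0 in mimic: miR-485-3p, miR-485-5p, miR-666-5p and miR-667-3p. The median log2 ratio was -0.90 as deposited, -1.70 with equal totals and -0.77 with median of ratios, and the rows summed to 12688 in mimic, 33940 in KO and 31482 in WT. As shares of the totals, the sums were 0.149% in mimic, 0.418% in KO and 0.646% in WT, so mimic was the lowest of the 3 by either measure. The region holds a pair of runs on GRCm38, both on the plus strand. In the run at chr12:109572004-109595387, with 14 matched rows, 6 were at least 2-fold lower as deposited and 0 higher. In the run at chr12:109709065-109743784, with 35 matched rows, 18 were lower and 2 higher. As deposited, 25.8% of all rows were at least 2-fold lower and 19.8% higher.

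Rows of the region did not differ evenly. miR-127-3p, its most abundant row, was at 2006 in mimic, 12073 in KO and 10203 in WT, 5.09-fold lower in mimic than in WT as deposited, whereas miR-127-5p from the same hairpin was at 344, 675 and 292. miR-136-3p was at 2047 in mimic, 2310 in KO and 3725 in WT, and miR-300-3p at 1356, 2208 and 2291. At the other end, miR-379-5p was at 620 in mimic, 1579 in KO and 417 in WT, miR-410-3p at 458, 523 and 304, and miR-494-3p at 65, 247 and 31, all above WT in mimic as deposited, and miR-494-3p alone of them also with equal totals. With equal totals 34 of the 52 rows were lower and 0 higher, beside 46.7% and 7.23% of all rows with that scaling.

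**Figure D3:**
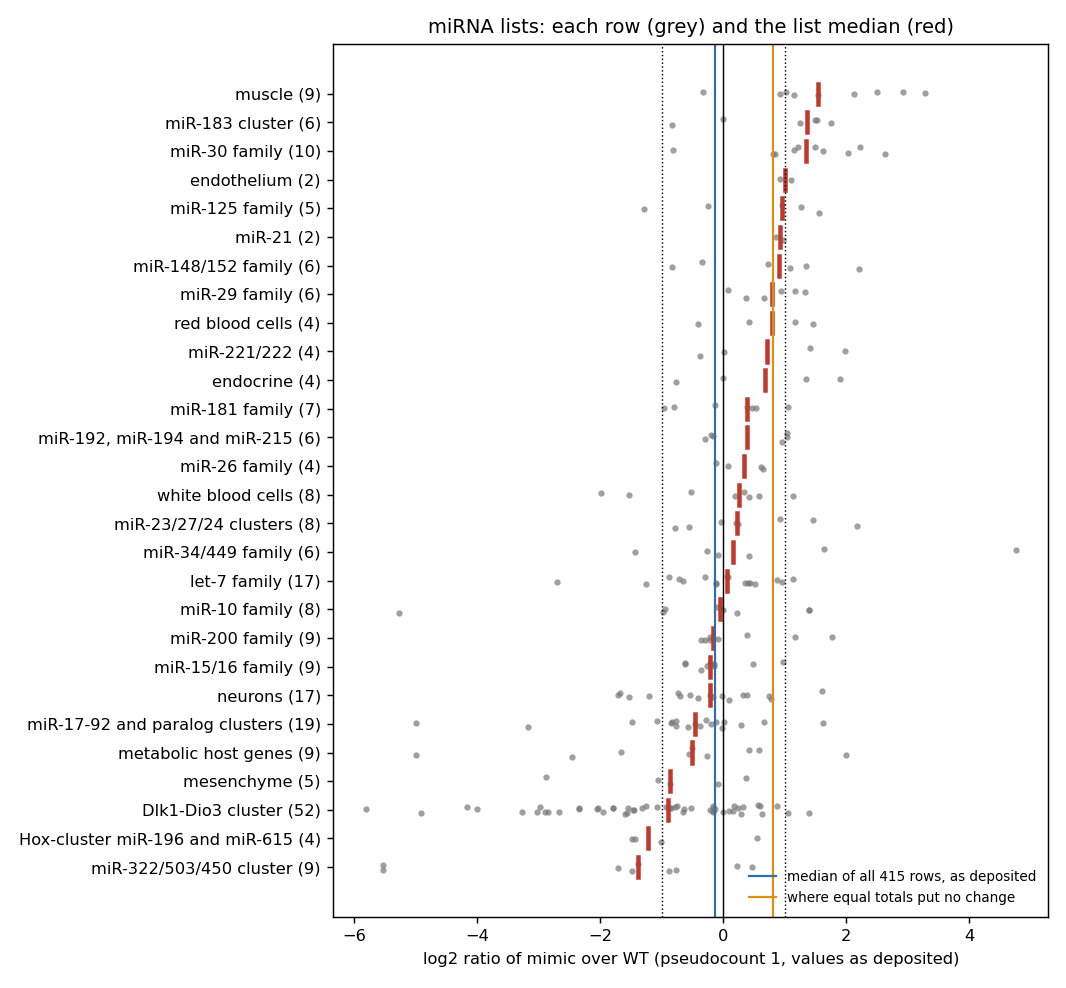
Log2 ratio of mimic over WT, as deposited with a pseudocount of 1, for each row (grey) of 28 miRNA lists, ordered by the list median (red bar), with the number of rows in parentheses. The muscle median is 1.54 and the Dlk1-Dio3 median is -0.90, beside a median of -0.14 over all rows (blue line); the orange line is where equal totals place no change, dotted lines mark 2-fold, and rows at 0 are placed by the pseudocount.

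High and low rows were not equally distributed over abundance. As deposited, 19.8% of all rows were at least 2-fold higher and 25.8% lower. Of the 62 rows with a mean of mimic and WT of at least 10000, 18 (29.0%) were higher and 3 (4.84%) lower. The median of that class was 0.41 as deposited and -0.39 with equal totals. Of the 78 rows with a mean from 300 to under 1000, 9 (11.5%) were higher and 21 (26.9%) lower, and the class median was -0.22 as deposited. The share higher was lowest in that class and did not rise steadily with level. Of the 55 rows under 30, 21.8% were higher and 38.2% lower. The 3 abundant rows that were lower were miR-378a-3p, let-7b-5p and miR-93-5p. The mean of miR-10b-5p, 9263, put it in the class below.

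The ratio of mimic over WT also varied with the base composition of the mature miRNA. A RefSeq mature sequence was matched for 341 of the 415 rows (82.2%), and the rows were split by G+C content. Examples from the printed rows and from rows at either end show the range, with G and C in capitals.
miR-374b-5p: auauaauaCaaCCuGCuaaGuG
miR-148a-3p: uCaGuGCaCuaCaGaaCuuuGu
miR-214-3p: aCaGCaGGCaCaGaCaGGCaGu
miR-652-5p: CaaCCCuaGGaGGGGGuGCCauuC
miR-1247-5p: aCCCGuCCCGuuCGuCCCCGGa
miR-339-3p: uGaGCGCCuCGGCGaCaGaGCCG
miR-374b-5p has 31.8% G+C and was 3.96-fold higher in mimic, and miR-1247-5p has 72.7% and was listed at 0 in mimic. miR-339-3p, with 73.9% G+C and 4.44-fold higher in mimic as deposited, goes against this direction.

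In the 34 rows with under 35% G+C the median log2 ratio of mimic over WT was 0.61, and 41.2% were at least 2-fold higher and 14.7% at least 2-fold lower. In the 39 rows with at least 60% G+C the median was -0.87, and 5.13% were higher and 46.2% lower. The classes between stepped down, with medians of 0.38, -0.09, -0.13, -0.32 and -0.57. For KO over WT, which shares the WT library, the class medians lay between -0.03 and 0.32 without such steps. Across the 341 rows Pearson's r of G+C content and the log2 ratio of mimic over WT was -0.30 and Spearman's rho -0.32, while for KO over WT they were -0.07 and -0.08. The points share 1 pair of libraries, and related miRNAs share bases, so these values describe the libraries only.

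The classes also differ in abundance, with a median level of 519 in the lowest G+C class and 100.5 in the highest, so rows of low level were set aside in turn. Among the 248 rows with a mean of mimic and WT of at least 100, rho was -0.32, and among the 122 rows with a mean of at least 1000 it was -0.35, although the highest class then held 4 rows with a median of -0.07. Without the Dlk1-Dio3 rows rho was -0.36 over 292 rows, and without rows at 0 in mimic or WT it was -0.29 over 326 rows. For KO over WT rho was -0.09, -0.14, -0.14 and -0.08 in the same 4 sets of rows. Without the Dlk1-Dio3 rows the KO over WT class medians also tended down with G+C content. They were 0.36 in the lowest class and -0.07 in the highest. Looked at base by base after the values had been seen, rho of the mimic over WT ratio was -0.26 with the share of C, 0.25 with A, -0.01 with G and 0.05 with U. For KO over WT it was -0.28 with C, 0.01 with A, 0.25 with G and 0.07 with U. Over all 341 rows the relation to C thus stood in both ratios, while KO over WT went up with G. Among the 122 rows with a mean of at least 1000, rho of mimic over WT was -0.11 with C and -0.14 with G. The weak relation to C and none to G in that ratio therefore did not hold for abundant rows. For KO over WT rho was -0.27 with C and 0.24 with G in these 122 rows. Over all 341 rows the length of the mature sequence gave a rho of -0.01 with mimic over WT. What lies behind the relation to base content was not tested.

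**Figure D4:**
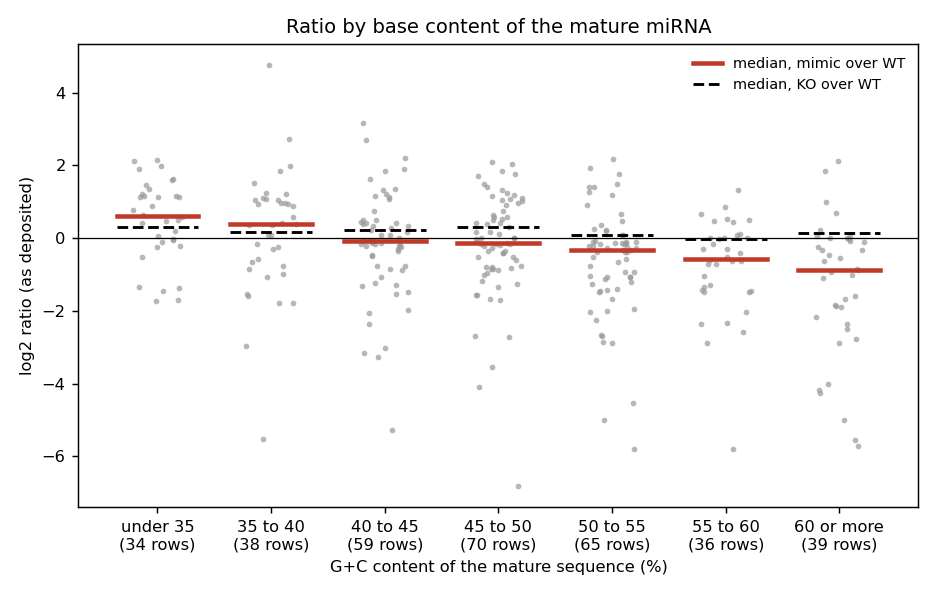
Log2 ratio of mimic over WT as deposited (grey points, 1 per row) by the G+C content of the mature sequence in percent, for the 341 rows matched to RefSeq; red bars are class medians of mimic over WT and dashed black bars class medians of KO over WT. The red medians step down, 0.61 in the lowest class and -0.87 in the highest, and the black ones do not.

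The arms of a hairpin come from the same precursor, and their ratio within a library does not depend on the scaling. For 142 hairpins both arms were above the limit, and in 88 of them both arms had a mean of mimic and WT of at least 100. In these 88, as deposited, both arms were at least 2-fold higher in 9 hairpins, both were at least 2-fold lower in 9, and 0 hairpins had arms apart in opposite ways. In 33 hairpins 1 arm passed 2-fold while its partner did not, and in 37 both lay within 2-fold. Pearson's r between the log2 ratios of the arms was 0.56 and Spearman's rho 0.55, over 88 hairpins of the same libraries. Over all 142 hairpins, which include scarce arms, 5 had arms apart in opposite ways, r was 0.35 and rho 0.32. The counts for the 88 hairpins depend on the scaling. Under all 3 scalings both arms were higher in 2 of them, miR-143 and miR-30d, and lower in 5, miR-574, miR-378a, miR-382, miR-154 and miR-337. As deposited, but not under every scaling, both arms were also higher in miR-145a, miR-148a, miR-30a, miR-30e and miR-708, and lower in miR-214 and miR-196b, among others.

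The balance between arms shifted by at least 2-fold in 34 of the 88 hairpins, in 21 toward the 5p arm and in 13 toward the 3p arm. let-7d had the largest shift: its 5p arm held 85.1% of the hairpin's reads in mimic, 58.3% in KO and 39.6% in WT, so the more abundant arm of WT was the minor one in mimic. The let-7d-5p row was at 13073 in mimic, 16641 in KO and 9713 in WT, so the difference lay mostly in the 3p arm. In miR-127 the 5p share was 14.6% in mimic, 5.29% in KO and 2.78% in WT. In miR-409, also of the Dlk1-Dio3 region, it was 80.3% in mimic, 69.9% in KO and 44.6% in WT. In miR-30c it was 99.2% in mimic, 98.9% in KO and 96.1% in WT.

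Shifts toward the 3p arm were led by miR-674, with a 5p share of 5.78% in mimic, 18.5% in KO and 27.2% in WT. In miR-340 the 5p share was 96.3% in mimic, 98.6% in KO and 99.2% in WT. In miR-339 it was 94.6% in mimic, 95.0% in KO and 98.8% in WT, and in miR-582 it was 81.5% in mimic, 86.8% in KO and 94.9% in WT. In each of these 8 hairpins, which were chosen for the size of the shift, the KO share lay between those of mimic and WT.

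**Figure D5:**
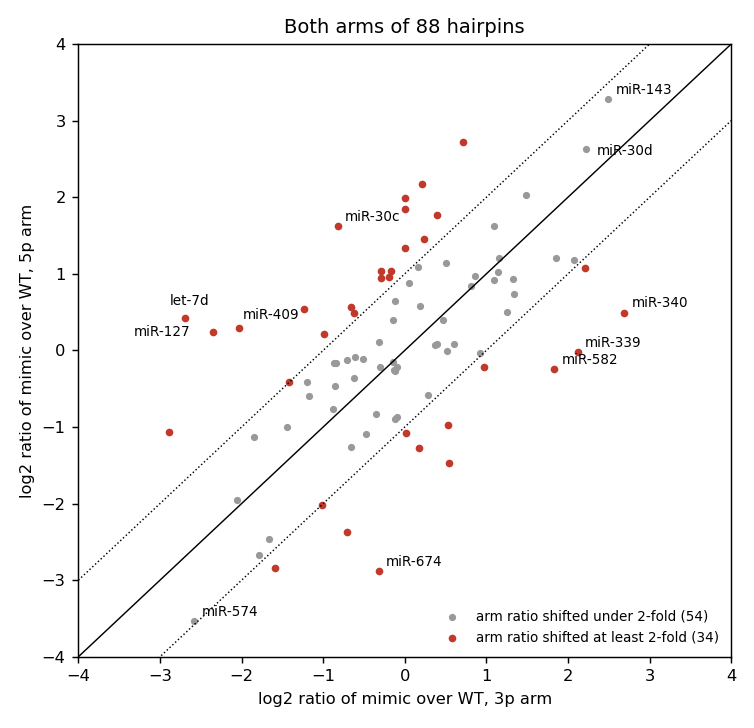
Log2 ratio of mimic over WT for the 5p arm (vertical) and the 3p arm (horizontal) of 88 hairpins with a mean of mimic and WT of at least 100 in both arms; the solid line marks equal ratios and the dotted lines a 2-fold shift in arm balance. Red points (34 hairpins) lie beyond 2-fold, with let-7d farthest to the 5p side and miR-674 farthest to the 3p side.

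Ratios between neighbours in a cluster, picked after the values had been seen, are likewise free of scaling. miR-143-3p over miR-145a-5p was 3.13 in mimic, 11.5 in KO and 1.12 in WT, although both come from 1 transcript. miR-27b-3p over miR-23b-3p was 11.0 in mimic, 6.73 in KO and 3.96 in WT, and miR-30d-5p over miR-30b-5p was 2.17 in mimic, 1.81 in KO and 0.631 in WT. By contrast, miR-192-5p over miR-194-5p was 8.08 in mimic, 6.39 in KO and 7.66 in WT, nearly the same in mimic and WT. Further pairs differed less than the first 3. miR-200a-3p over miR-429-3p was 6.66 in mimic, 16.1 in KO and 4.53 in WT, 1.47-fold higher in mimic than in WT. miR-182-5p over miR-183-5p was 1.44 in mimic, 0.652 in KO and 0.802 in WT, 1.79-fold higher. The proportion of miR-192-5p to miR-194-5p was thus nearly kept between mimic and WT, and those of the other named pairs differed to unlike degrees.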

How the data were processed

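The values deposited by the authors are a score: per the file headers, these are normalized reads per mature miRNA, and all are whole numbers. The 2 further columns that the authors deposited hold other values, differences between libraries, and were not used. The build is mm10 per the submitters' processing notes. The sources used here name no aligner or counting tool, and how the reads were normalized is not given in them. Libraries were TruSeq small RNA preparations from total RNA, sequenced as 50-base single-end reads, per the labels' protocols. Depth is unknown, and no counting interval or detection limit is given.

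Rows with a mean over the 3 libraries of at least 10 were kept. Ratios are log2((mimic + 1)/(WT + 1)), and a row was called at 2-fold or more. Folds are ratios of the values without the pseudocount. Equal totals used all 471 rows; median-of-ratios factors used the 394 rows above 0 in every library. The named rows are the miR-10 family, the 10 most abundant, the 15 highest and 15 lowest ratios apart under all 3 scalings at a mean of mimic and WT of at least 100, up to 4 rows of each of 28 lists, the 8 largest arm shifts, and 5 rows at 0; other rows named in the text were chosen after their values were seen. Members and lists were chosen with earlier results of these data known. Mature sequences are from RefSeq (GRCm38.p6), and host genes from GENCODE annotation of the same assembly. Python 3.11.15, pandas 2.3.3, numpy 2.4.6, scipy 1.17.1 and matplotlib 3.10.9 were used, and the counting was tested on simulated data.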

Additional observations from a re-analysis of the deposited data

How the results depend on the processing

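With equal totals, 30 rows were higher and 194 lower, so that 13.4% of the rows apart were higher in mimic, against 43.4% as deposited and 50% with median of ratios. This follows from the shift of every ratio by the totals. At a mean of at least 100, 67 rows were lower, of 302 kept. Keeping only the more abundant arm of each hairpin left 269 rows, of which 48 were higher. A 4-fold limit gave 20 rows higher and 48 lower, with 29.4% higher among those apart. The counts stayed within 1.5 times under pseudocounts of 0.1 and 10, no filter, a filter on mimic and WT alone, summed names, equal rows counted once, and a 1.5-fold limit. Of 28 list medians, 11 changed sign with equal totals and 1 with median of ratios. No called value changed sign. For the scalings this was fixed in advance, since they move each log2 ratio by less than the 2-fold limit. No paired analysis was possible because each group has 1 library, and for the same reason leaving out a library was not possible. Depth limits rows of low value most, and no detection limit can be given for the 17 rows at 0 in mimic.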

Other observations

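Several lists not described above held mixed or small differences. In the miR-183 cluster, which is known from sensory cells and epithelia, miR-182-5p was at 19337 in mimic, 17564 in KO and 19307 in WT, and miR-183-5p at 13434, 26951 and 24064 in the same order. miR-96-5p was at 9602 in mimic, 10364 in KO and 4062 in WT, and the 3 minor arms were low in number but above WT. Of these 6 rows, 1 was higher under all 3 scalings and 0 were lower, beside 7.23% and 22.9% of all rows. The median log2 ratio of the cluster was 1.36 as deposited, 0.57 with equal totals and higher again with median of ratios, and it rests mostly on the scarce arms.

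In the miR-15 and miR-16 family, which represses cyclins, all 9 rows were within 2-fold as deposited, beside 226 of all 415 rows. There miR-16-5p was at 15507 in mimic, 11045 in KO and 19832 in WT. In the miR-181 family, miR-181a-5p was at 4051 in mimic, 14379 in KO and 7924 in WT. Of its 7 rows 0 were apart under all 3 scalings, beside 7.23% of all rows higher and 22.9% lower. In the miR-125 family, miR-125b-5p was at 17321 in mimic, 16539 in KO and 7257 in WT, while miR-125a-5p was at 6918, 6833 and 8251. miR-203-3p, a miRNA of differentiating epithelia named here after its value was seen, was at 9570 in mimic, 13832 in KO and 2687 in WT and was higher in mimic under all 3 scalings. Of the miRNAs hosted by metabolic genes, miR-103-3p was at 14302 in mimic, 27480 in KO and 9567 in WT, and miR-33-5p, from an intron of the sterol regulator gene Srebf2, was at 137, 848 and 164. The liver miRNA miR-122-5p was at 47 in mimic, 7 in KO and 11 in WT. Of the 160 rows in no list, 16 were higher and 46 lower under all 3 scalings, near the 7.23% and 22.9% of all rows.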
